A study of Mus musculus with 6 samples.

Results

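The genes described here are those that encode antibodies and T cell receptors, taken as every row of the authors' deposited table whose gene type begins with IG_ or TR_. There were 151 such genes among 23170, of which 144 were immunoglobulin genes and 7 were T cell receptor genes. The RNA was that of subchondral bone of the mandibular condyle, the bone under the joint cartilage at the end of the lower jaw. Wild type mice had been given either a sham operation or a partial discectomy, the removal of part of the disc of the temporomandibular joint, on 1 side, and the bone came from the operated side. Each group had 3 libraries, and the age label P6w+PO2w, the same in both groups, reads as 6 weeks followed by 2 weeks, with its prefixes left unexplained. Whether each of the 3 libraries stands for its own mouse is not stated in the labels, so the spread between them may be partly technical. They tie the sham group to the letters Rctrl and the partial discectomy group to LPD, without explaining them.

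An antibody is built from a heavy chain, encoded at the Igh locus, and a light chain from the Igk (kappa) or Igl (lambda) locus, while T cell receptors are built from the products of Tra and Trb or of Trg and Trd. In each developing lymphocyte the RAG recombinase joins a variable (V) segment to a joining (J) segment, in some loci with a diversity (D) segment between them, and splicing then links the joined exon to a constant (C) region. The heavy constant region sets the antibody class: naive B cells make IgM and IgD, and activated B cells can switch to IgG or IgA and become antibody-secreting plasma cells, which reside in bone marrow. In bulk tissue, more cells of a type and more RNA per cell cannot be told apart.

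By gene type the 151 genes were 126 V genes, 4 V pseudogenes, 3 J genes and 11 constant genes of the immunoglobulin loci, and 6 constant genes and 1 V gene of the T cell receptor loci. By locus there were 79 genes of Igh, 59 of Igk, 6 of Igl, 1 of Tra, 2 of Trb, 2 of Trg and 2 of Trd. All 151 matched a gene of the GENCODE vM21 annotation of the mouse build mm10. That annotation holds 218 immunoglobulin V genes and 13 constant genes. It also holds 144 T cell receptor V genes, of which the rows analysed here include Trdv4 alone. The 17 constant genes and the 134 segments (V, J and V pseudogenes) are treated separately below.

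The sequences of 4 constant genes and 3 V segments are printed here. The constant genes form near-identical pairs whose reads may be hard to tell apart, and the 3 segments are among those described below. All were read 5′ to 3′ on the coding strand from the GENCODE vM21 transcripts of mm10. Iglc3 (coding part chr16:19065368-19065681, minus strand) and Iglc2 (chr16:19198539-19198853, minus strand) encode lambda constant regions. Their first bases are shown, and capitals in Iglc2 mark the 12 of 315 aligned positions at which it differs from Iglc3. The first of these is an extra base at the start of Iglc2.
Iglc3: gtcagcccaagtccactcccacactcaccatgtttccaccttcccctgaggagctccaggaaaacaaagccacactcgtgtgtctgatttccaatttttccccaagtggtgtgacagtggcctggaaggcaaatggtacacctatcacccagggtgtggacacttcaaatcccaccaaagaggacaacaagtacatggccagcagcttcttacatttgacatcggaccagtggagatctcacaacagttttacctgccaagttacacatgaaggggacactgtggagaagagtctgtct
Iglc2: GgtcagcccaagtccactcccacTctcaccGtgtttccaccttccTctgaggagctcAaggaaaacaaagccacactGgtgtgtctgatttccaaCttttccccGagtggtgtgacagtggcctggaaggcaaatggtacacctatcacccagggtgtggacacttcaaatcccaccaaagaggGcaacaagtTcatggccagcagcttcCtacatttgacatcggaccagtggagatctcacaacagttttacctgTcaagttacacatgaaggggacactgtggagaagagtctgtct
Trbc1 (coding part chr6:41538218-41539662, plus strand) and Trbc2 (chr6:41546730-41548178, plus strand) encode the constant region of the T cell receptor beta chain. Their first exons were the same at 374 of 375 bases, and a stretch of 60 bases is shown with the differing base in capitals.
Trbc1: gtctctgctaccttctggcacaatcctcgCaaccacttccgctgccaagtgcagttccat
Trbc2: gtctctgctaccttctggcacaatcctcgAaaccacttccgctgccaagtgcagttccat
Igkv14-111 (coding part chr6:68256404-68256869, plus strand) was the segment that passed the test, and Igkv10-96 (chr6:68631963-68632430, minus strand) and Ighv1-31 (chr12:114829264-114829697, minus strand) were segments whose level came mostly from 1 sham library. The last 300 bases of each coding sequence are shown. Capitals mark the last in-frame cysteine codon (TGT or TGC), close to the end of the segment where V is joined to J or D.
Igkv14-111: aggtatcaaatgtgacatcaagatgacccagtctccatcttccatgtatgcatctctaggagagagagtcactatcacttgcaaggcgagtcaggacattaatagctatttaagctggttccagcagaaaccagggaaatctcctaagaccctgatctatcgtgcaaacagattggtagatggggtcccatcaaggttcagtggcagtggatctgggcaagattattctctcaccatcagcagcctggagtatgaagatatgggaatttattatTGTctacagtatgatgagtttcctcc
Igkv10-96: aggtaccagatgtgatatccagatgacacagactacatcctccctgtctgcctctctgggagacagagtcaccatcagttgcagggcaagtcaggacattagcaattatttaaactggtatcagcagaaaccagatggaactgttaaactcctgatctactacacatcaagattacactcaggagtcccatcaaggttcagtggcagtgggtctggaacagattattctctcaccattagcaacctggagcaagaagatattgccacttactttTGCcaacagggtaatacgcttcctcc
Ighv1-31: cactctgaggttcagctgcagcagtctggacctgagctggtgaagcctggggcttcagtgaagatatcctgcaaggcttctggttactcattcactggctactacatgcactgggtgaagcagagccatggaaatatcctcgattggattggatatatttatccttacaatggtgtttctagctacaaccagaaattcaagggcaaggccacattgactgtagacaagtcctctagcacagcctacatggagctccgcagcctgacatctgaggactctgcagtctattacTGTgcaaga
An in-frame cysteine codon was found within the last 40 bases of the coding sequence in all 126 V genes of the table and in 216 of 218 annotated V genes. Among 21946 protein-coding genes, read on the coding strand only, 24.2% had one in that window.

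Values in the authors' deposited table are group means on a normalized scale whose unit is not named, with no values of single libraries among them. The smallest mean of the table is 1, which is taken here as an offset added to each library and called the floor. A level "above the floor" is the mean less that offset, and a ratio divides the mean after partial discectomy by that of sham with the floor included, so that ratios of genes near the floor are drawn towards 1. The p-values, adjusted p-values and 95% limits are the authors', from a model not given in the sources used here, and the adjusted p is taken over all 23170 genes. A gene is called here at an adjusted p under 0.05.

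Antibody and T cell receptor transcripts made up a small part of the summed signal in this bone. Above the floor, the 144 immunoglobulin genes came to 0.0384% of the signal of all genes in sham and 0.0586% after partial discectomy, computed from the authors' deposited table. Bone genes were high in both groups. Col1a1, the main collagen of bone, had means of 27783 in sham and 34180 after partial discectomy in the authors' deposited table, and Bglap, the osteoblast product osteocalcin, of 220 and 372. Of the 151 genes 135 had a mean under 1 above the floor over both groups, 130 of them segments. By contrast, 7 of the 17 constant genes had a mean of at least 5 above the floor, where the median over all genes was 3.60. At the floor itself were 2 of the 151 genes after partial discectomy and 7 in sham, to within rounding. Sequencing depth is unknown, so no limit of detection is given.

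At an adjusted p under 0.05, 4 of the 151 genes rose and none fell in the authors' deposited table. Those that rose were Ighd of the heavy chain locus, the lambda constant gene Iglc3, the kappa segment Igkv14-111 and Trbc1. This is 2.65% of the group, beside 2.28% of all genes called higher and 0.104% called lower, a share near the background. Of the constant genes 3 of 17 were called (17.6%), and of the segments 1 of 134 (0.746%), most of which lie in the low range where 1.18% of genes were called higher. Before adjustment, 25 genes were higher at a p under 0.05 (16.6%), beside 10.9% of all genes, and 0 were lower, beside 3.31%. Of the constant genes 9 of 17 were among these 25, and of the segments 16 of 134 (11.9%), where 8.21% of all genes under 1 above the floor were. By the authors' 95% limits 28 genes lay above equal means (18.5%, against 11.1% of all genes) and 1, Ighv1-31, lay below (3.59% of all genes). The limits and the p-values of the authors' deposited table did not always fall on the same side: 1 gene, Ighm, had an unadjusted p under 0.05 with limits that include 1, and 5 genes had the reverse.

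Ratios above 1 outnumbered those below. The ratio was above 1 for 111 of 151 genes (73.5%), beside 62.7% of all genes and 53.5% of all genes under 1 above the floor. The median log2 ratio was 0.17 for the 151 genes, 0.67 for the constant genes and 0.15 for the segments, beside 0.08 for all genes and 0.02 for all genes under 1 above the floor. By locus the median log2 ratio was 0.19 for Igh, 0.12 for Igk, 1.22 for Igl, 0.86 for Tra, 0.52 for Trb, 0.05 for Trg and -0.36 for Trd, and relative to the summed means of all genes those of Igk and Trg turned to -0.017 and -0.078. Summed above the floor, Igh came to 96.2 in sham and 182 after partial discectomy, Igk to 85.5 and 111, and Igl to 2.98 and 16.5. These are 1.89-, 1.30- and 5.54-fold differences of sums, with no test, because the table gives no sum per library.

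**Figure D1:**
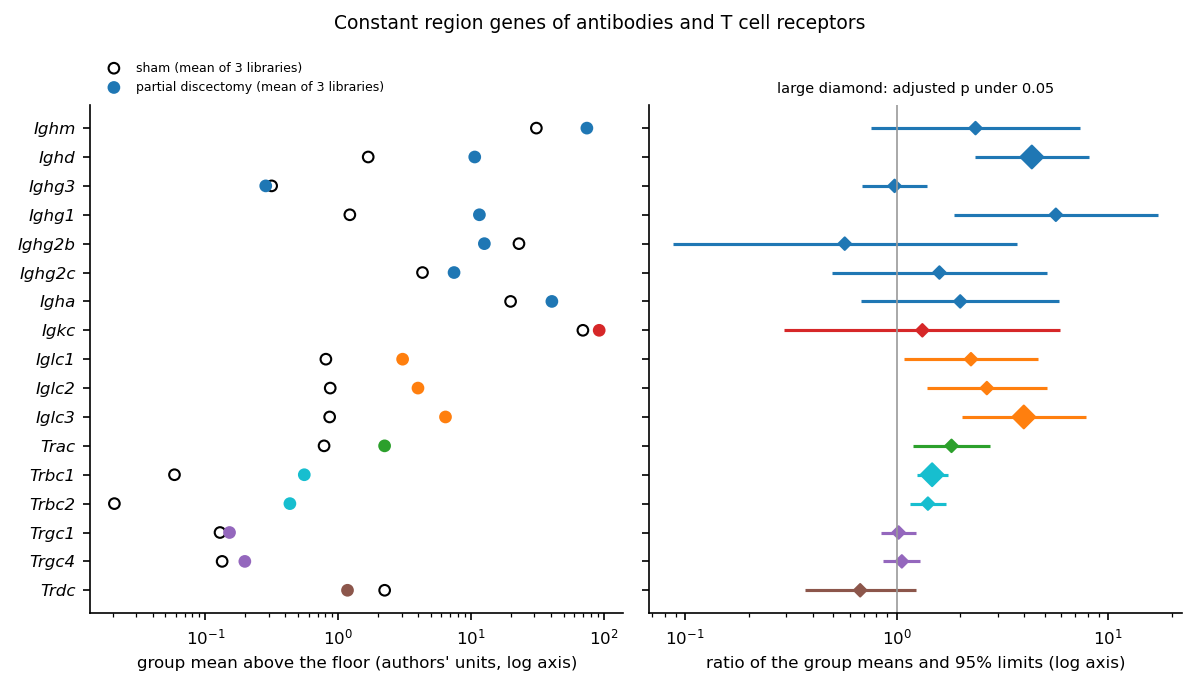
Constant region genes, coloured by locus, with open circles for the sham mean and filled circles for the partial discectomy mean above the floor (left, log axis, authors' units), and the ratio of the group means with the authors' 95% limits (right, log axis). Ighd, Iglc3 and Trbc1, drawn as large diamonds, have an adjusted p under 0.05, and the limits of Ighm, Ighg2b, Ighg2c, Igha and Igkc are wide and include 1.

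Among the heavy chain constant genes, IgD rose and IgM did not pass the threshold. Ighd, the constant region of IgD (chr12:113406604-113416325, minus strand), had means of 2.68 in sham and 11.7 after partial discectomy (ratio 4.35 in the authors' deposited table, 95% limits 2.34 to 8.08, adjusted p = 0.0223). Its highest library, which had to be a partial discectomy one, held 41.8% of that group's level above the floor, where an even spread over 3 libraries gives 33.3%. Without that library the ratio would be 3.85. Ighm, the constant region of IgM (chr12:113418558-113422731, minus strand), had means of 32.1 in sham and 75.6 after partial discectomy (ratio 2.36 in the authors' deposited table, 0.754 to 7.37, adjusted p = 0.267). The Ighm and Ighd messages are spliced from a shared primary transcript in naive B cells, and together they made up 54.0% of the heavy constant level after partial discectomy and 40.2% in sham, or 50.4% in sham without the highest library of Ighg2b described below. Per kilobase of exon, Ighm had a level above the floor of 39.6 after partial discectomy and 16.5 in sham, and Ighd one of 5.62 and 0.886, so that IgD transcripts were the scarcer of the pair in both groups.

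None of the 4 IgG genes was called, their ratios lay on both sides of 1, and single libraries held most of their level. Ighg1, of the IgG1 class, had a level above the floor of 11.6 after partial discectomy and 1.22 in sham, and a ratio of 5.65 by the authors' deposited table (1.86 to 17.1, adjusted p = 0.167). One partial discectomy library held 77.3% of that level, and without it the ratio would be 2.22. Ighg2b, of the IgG2b class, had 12.6 after partial discectomy and 23.0 in sham above the floor and a ratio of 0.568 by the authors' deposited table (0.0875 to 3.68, adjusted p = 0.944). Here 1 sham library, at 56.0 above the floor, held 81.2% of the sham level, and without it the ratio would be 1.82. Ighg2c had a ratio of 1.59 (0.495 to 5.11), 0.978 without a partial discectomy library that held 62.4%, and Ighg3 a ratio of 0.977 (0.685 to 1.39), 1.24 without a sham library that held 93.2%, by the authors' deposited table. For Ighg2b, Ighg2c and Ighg3 the direction thus turned when 1 library was left out. The table does not say whether the highest library is the same one from gene to gene.

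Igha, the constant region of IgA, stood at a mean of 41.7 after partial discectomy and 20.9 in sham, with a ratio of 2.00 by the authors' deposited table (0.680 to 5.86, adjusted p = 0.382). Its highest library held 40.5% of the partial discectomy level. Classes that arise by switching, IgG and IgA, made up 46.0% of the heavy constant level after partial discectomy and 59.8% in sham. IgG alone made up 20.2% after partial discectomy and 35.4% in sham (19.8% and 33.4% per kilobase of exon). Within that, Ighg2b, with its 1 high sham library, took 7.99% and 28.2% of the heavy constant level. Igha took 25.8% and 24.4%. These shares come from group means and carry no test. For IgG the order of the groups turns when only that sham library of Ighg2b is left out. It turns back when Ighg1 loses its highest library as well. With the highest sham library left out of the Ighg2b mean and the other genes kept, a step added after the values were seen, the sham share of IgG would be 19.0%, that of the switched classes 49.6% and that of Ighm and Ighd 50.4%. With the highest library likewise left out of the partial discectomy mean of Ighg1, IgG would take 16.2% of that group's level, below the 19.0% of sham.

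**Figure D2:**
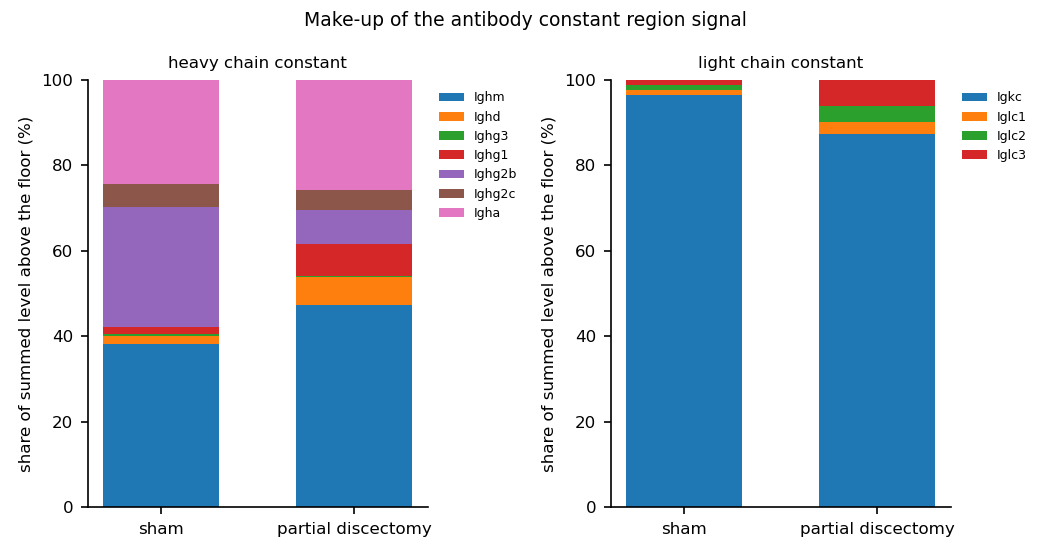
Share of each constant gene in the summed level above the floor, in percent, of the heavy chain constant genes (left) and the light chain constant genes (right), for the mean of 3 sham and of 3 partial discectomy libraries. Ighm is the largest heavy chain part in both groups, Ighg2b takes 28.2% in sham and 7.99% after partial discectomy, and the lambda genes Iglc1, Iglc2 and Iglc3 together take 12.7% of the light chain level after partial discectomy and 3.52% in sham.

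Of the light chains, all 6 lambda genes had ratios above 1 and Iglc3 rose, while the kappa constant gene did not pass the threshold. Igkc, the single kappa constant gene (chr6:70726435-70726967, plus strand), had means of 70.7 in sham and 93.4 after partial discectomy (ratio 1.32 in the authors' deposited table, 0.294 to 5.94, adjusted p = 0.608). Its highest library stood at 150 above the floor, and the table leaves its group undetermined. Were it a partial discectomy library, the ratio without it would be 0.914, and were it a sham library, 3.07. The lambda constant genes had sham levels between 0.808 and 0.872 above the floor. Iglc3 had means of 1.86 in sham and 7.43 after partial discectomy, floor included (ratio 3.99 in the authors' deposited table, 2.03 to 7.85, adjusted p = 0.0473). The ratio was 2.67 for Iglc2 (1.39 to 5.13, adjusted p = 0.145) and 2.24 for Iglc1 by the authors' deposited table (1.08 to 4.66, adjusted p = 0.322). The coding sequences of Iglc2 and Iglc3 shown above are 96.2% identical, and those of Iglc1 and Iglc3 74.5%, so reads may be split between Iglc2 and Iglc3, and how the authors' counting treated such reads is not given in the sources used here. Their sum was 10.4 after partial discectomy and 1.73 in sham above the floor, a 6.01-fold difference. Whether that sum is free of the split cannot be told, since the unit and the treatment of shared reads are not given. Lambda took 12.7% of the light constant level after partial discectomy and 3.52% in sham, and per kilobase of exon 13.7% and 3.76%. Nearly all of that level is Igkc, so the share moves with its highest library: left out of the Igkc mean, it would make the lambda share 7.95% in sham if it is a sham library, or 17.5% after partial discectomy if it is one of those.

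The 3 lambda V segments also had ratios above 1. Iglv1 had means of 1.28 in sham and 3.11 after partial discectomy (ratio 2.42 in the authors' deposited table, 1.19 to 4.90, adjusted p = 0.353), with 77.8% of the partial discectomy level in 1 library and a ratio of 1.32 without it. The ratio was 1.54 for Iglv3 (1.18 to 2.00, adjusted p = 0.121) and 1.17 for Iglv2 by the authors' deposited table (0.983 to 1.38, adjusted p = 0.422). Iglv1 and Iglv2 are 96.9% identical in their coding sequence. In all, 4 of the 6 lambda genes were higher at an unadjusted p under 0.05, beside 10.9% of all genes, and 1 was called, beside 2.28%.

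The heavy and kappa V segments lay close to the floor, and their summed level was small beside that of the constant genes. The 72 heavy chain segments summed to 23.8 after partial discectomy and 14.7 in sham above the floor, against 158 and 81.5 for the 7 heavy constant genes. The 58 kappa segments summed to 18.6 and 15.8, computed like the rest from the authors' deposited table. Ratios ran from 0.385 to 1.80 over the heavy and from 0.373 to 1.84 over the kappa segments. The ratio was above 1 for 56 of 72 heavy and 38 of 58 kappa segments, and 8 (11.1%) and 7 (12.1%) of them were higher at an unadjusted p under 0.05. Of all genes 10.9% were higher at that p and 62.7% had a ratio above 1. A mean under 1 above the floor was found in 71 of 72 heavy and 56 of 58 kappa segments. Among all genes of that low range 8.21% were higher at that p and 53.5% had a ratio above 1. Ratios above 1 made up 77.8% of the heavy and 65.5% of the kappa segments, and the difference from the low range was not tested. The 4 V pseudogenes, which cannot encode a chain, had ratios between 0.877 and 1.27.

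Igkv14-111 was the 1 segment called. It had means of 1.09 in sham and 1.86 after partial discectomy (ratio 1.70 in the authors' deposited table, 1.33 to 2.18, adjusted p = 0.0429). Its highest library held 41.4% of the partial discectomy level, and without it the ratio would be 1.61. The nearest annotated V gene, Igkv14-126, is 91.5% identical in coding sequence. The highest heavy segments by mean over both groups were Ighv3-6 (2.50 after partial discectomy, 1.63 in sham), Ighv1-31, Ighv9-3 (2.27 and 1.28, in the same order), Ighv14-2 (1.42 and 1.97) and Ighv1-69 (1.43 and 1.77) in the authors' deposited table. Ighv3-6 had a ratio of 1.54 (0.950 to 2.48) and Ighv9-3 one of 1.77 by the authors' deposited table (1.18 to 2.64, adjusted p = 0.189). The highest kappa segments were Igkv10-96, Igkv1-135 (3.32 after partial discectomy and 2.04 in sham), Igkv6-15 (1.60 and 1.79), Igkv17-127 (1.41 and 1.84) and Igkv12-46 (1.68 and 1.43), per the authors' deposited table. Igkv1-135 had a ratio of 1.63 in the authors' deposited table (0.766 to 3.48), and 67.0% of its partial discectomy level came from 1 library, without which the ratio would be 1.06.

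**Figure D3:**
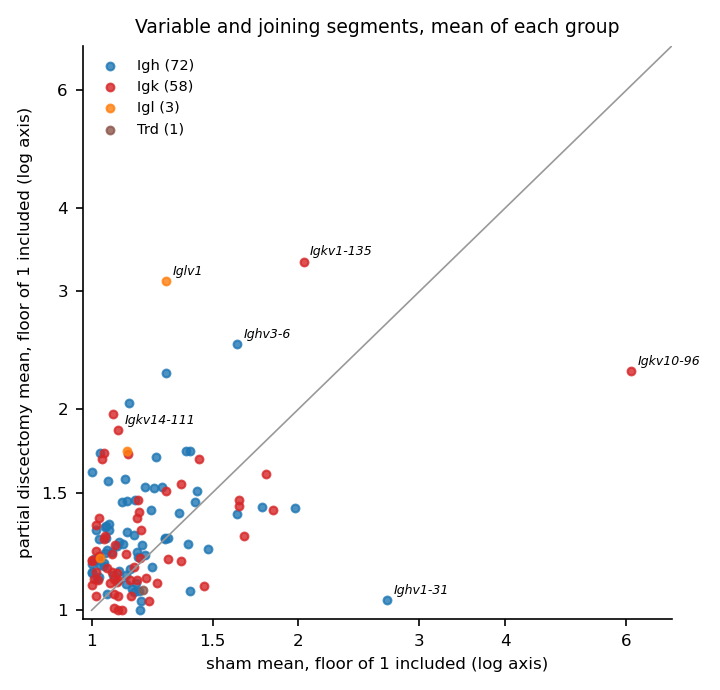
Group means of the 134 variable and joining segments, floor of 1 included, with sham on the horizontal and partial discectomy on the vertical axis (both log axes), coloured by locus, and the line of equal means. Most points lie near the floor and above the line, Igkv14-111 is the segment with an adjusted p under 0.05, and Igkv10-96 and Ighv1-31 lie far to the right at sham means of 6.10 and 2.69.

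The kappa and the heavy segment with the lowest ratios each had most of their sham level in 1 library. Igkv10-96 had means of 6.10 in sham and 2.28 after partial discectomy (ratio 0.373 in the authors' deposited table, 0.112 to 1.25, adjusted p = 0.669). A single sham library, at 12.1 above the floor, held 79.0% of the sham level, and without it the ratio would be 0.873. Ighv1-31 had means of 2.69 in sham and 1.04 after partial discectomy (ratio 0.385 in the authors' deposited table, 0.156 to 0.949, adjusted p = 0.575). Here 1 sham library at 5.08 above the floor held 100% of the sham level to within rounding, and without it the ratio would be 1.04. Of all 151 genes Ighv1-31 was the 1 with 95% limits below equal means.

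Levels that come mostly from 1 library were far more frequent among the segments than among other genes of like level. The group that holds the highest library could be worked out from the group means, the highest value and the geometric mean for 113 of the 134 segments, 79 times partial discectomy and 34 times sham. That library held at least 75% of its group's level in 28 of those 79 segments (35.4%, median share 67.8%) and in 27 of those 34 (79.4%, median share 96.2%). For other genes in the middle range of the segments' levels, 0.109 to 0.359 above the floor, these shares were 5.41% and 7.62%. For those of them with up to 500 bases of exon, about as short as a V segment, they were 5.29% and 6.20%. The group was undetermined for 21 segments and for 213 of the 512 short genes, so that over a whole set only a range can be given. At least 75% of a group's level was in 1 library for 55 of 134 segments (41.0%) when undetermined ones are counted as below, and for 73 (54.5%) when each that could reach it is counted. For the short genes these numbers were 17 (3.32%) and 46 (8.98%), and for the 66 segments within that range of levels 24 (36.4%) and 36 (54.5%). These comparison genes were chosen after the values of the segments had been seen, the difference was not tested, and genes with 1 high library are also those whose group is easier to work out. In 69 of the 126 V genes another annotated V gene is at least 95% identical in coding sequence (median 95.4% over all), so that reads may be split between them. The part of this in the single-library levels was not tested.

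**Figure D4:**
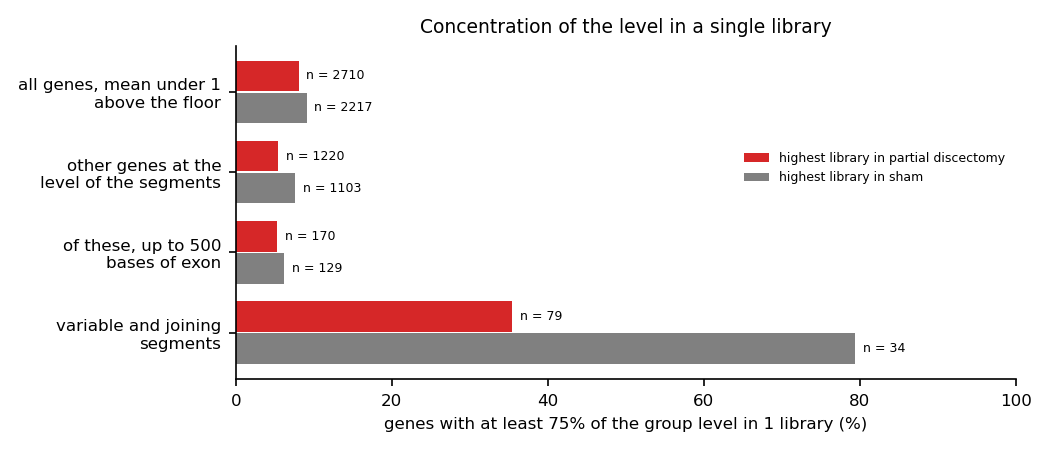
Percentage of genes with at least 75% of their group's level above the floor in 1 library, among genes whose highest library could be placed in partial discectomy (red) or sham (grey), with the number of such genes beside each bar. The variable and joining segments reach 35.4% and 79.4%, and the other gene sets lie between 5.29% and 9.07%.

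Median ratios differed little along the heavy and kappa loci. The 69 heavy V rows lay 160 to 2572 kb from Ighj4, and in the nearest, the middle and the farthest 23 of them the median log2 ratio was 0.19, 0.19 and 0.13. Levels summed above the floor differed 1.77-, 1.41- and 1.72-fold between the groups in these 3 sets. In the kappa locus, with distances from Igkc of 28.0 to 3171 kb, the medians were 0.05, 0.04 and 0.14 over 20, 19 and 19 segments and the sums differed 1.43-, 1.53- and 0.996-fold, the farthest 19 including Igkv10-96. By family, the 39 segments of Ighv1, the largest family, had 30 ratios above 1. The 4 Ighv9 segments had a 4.42-fold difference of sums and the 6 Igkv8 segments a 0.688-fold one. No test was made of positions or families, since neighbouring segments share sequence and each rests on low levels.

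**Figure D5:**
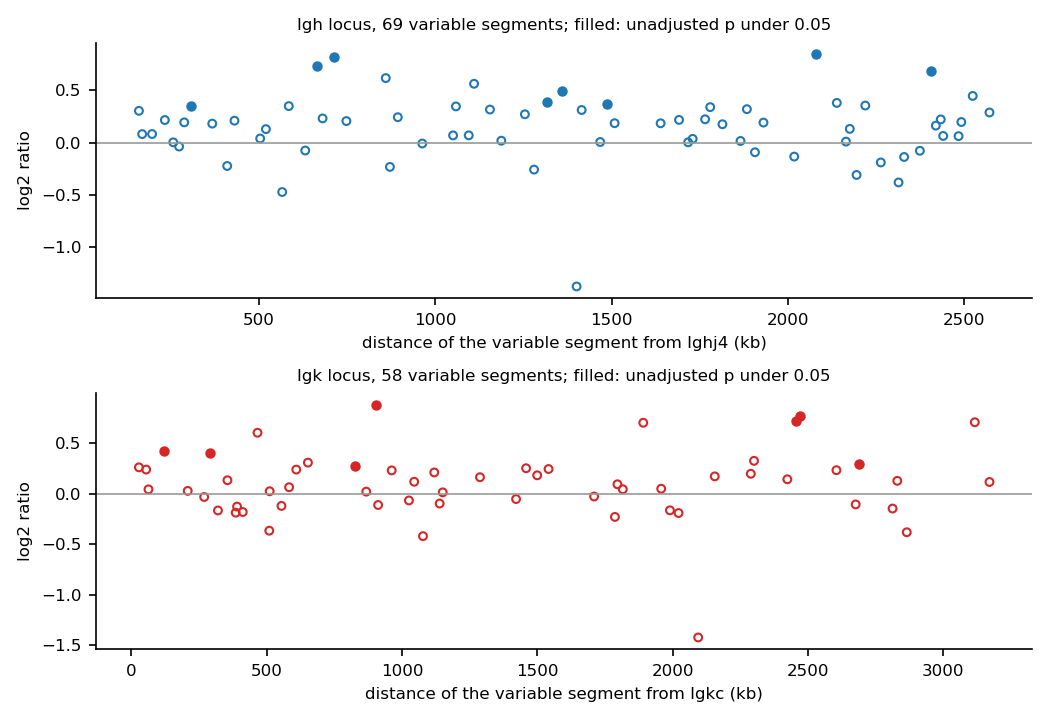
Log2 ratio of partial discectomy over sham for each heavy (top) and kappa (bottom) variable segment against its distance in kb from Ighj4 or Igkc, with filled points for an unadjusted p under 0.05. Points above and below 0 are mixed along both loci, and the filled points, 8 for heavy and 7 for kappa, all lie above 0.

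Of the T cell receptor genes, Trbc1 rose, the other alpha and beta constant genes had ratios above 1 with an unadjusted p under 0.05, and no gene of the gamma and delta chains passed either threshold. Trbc1 had means of 1.06 in sham and 1.56 after partial discectomy (ratio 1.47 in the authors' deposited table, 1.24 to 1.74, adjusted p = 0.0327). Its highest library held 38.5% of the partial discectomy level, close to an even spread. Trbc2 had means of 1.02 in sham and 1.43 after partial discectomy (ratio 1.40 in the authors' deposited table, 1.16 to 1.70, adjusted p = 0.0894). Both are at most 0.556 above the floor. Their first exons differ at 1 of 375 bases, marked in the printed stretch, so reads there can barely be told apart. Over the whole coding sequences 23 of 518 positions differ. Summed, the pair reached 0.989 after partial discectomy and 0.0792 in sham above the floor, a 12.5-fold difference that rests on a sham level near 0. Trac, the alpha constant gene (chr14:54220521-54224207, plus strand), had means of 1.78 in sham and 3.24 after partial discectomy (ratio 1.82 in the authors' deposited table, 1.19 to 2.77, adjusted p = 0.208). Without a partial discectomy library that held 56.0% of that group's level the ratio would be 1.39.

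Trdc, the delta constant gene, had means of 3.24 in sham and 2.18 after partial discectomy (ratio 0.672 in the authors' deposited table, 0.367 to 1.23, adjusted p = 0.703). A single sham library held 63.2% of its sham level, and without it the ratio would be 0.973. The gamma constant genes Trgc1 and Trgc4 had ratios of 1.02 (0.847 to 1.23) and 1.06 (0.865 to 1.29), and the delta segment Trdv4 one of 0.901 (0.769 to 1.06), per the authors' deposited table. The 95% limits of Trdc and of Trac overlap, and the difference between the chains was not tested.

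Genes that build, carry or accompany these receptors were read from lists chosen for their roles. Their counts stand beside 2.28% of all genes called higher and 0.104% called lower, and 10.9% higher and 3.31% lower at an unadjusted p under 0.05. Of 6 genes of V(D)J recombination and the surrogate light chain, 2 rose in the authors' deposited table: Dntt, the polymerase that adds untemplated bases at the joints, 4.25-fold (2.36 to 7.64, adjusted p = 0.0267), and Igll1, a surrogate light chain of precursor B cells, 4.91-fold (adjusted p = 0.0200). All 6 were higher at an unadjusted p under 0.05, with Rag1 of the recombinase at a ratio of 2.75 (0.908 to 8.33, adjusted p = 0.205) and a median log2 ratio of 1.44 in the authors' deposited table. Of 15 B lineage genes 2 rose, the kinase gene Btk (2.33-fold, adjusted p = 0.0232) and the tetraspanin gene Cd37 (2.78-fold, adjusted p = 0.0271), and 12 were higher at an unadjusted p under 0.05, per the authors' deposited table. Their median log2 ratio was 1.15, and the receptor's signalling subunits Cd79a and Cd79b stood at ratios of 2.95 and 2.46 by the authors' deposited table.

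Of 12 genes of antibody-secreting cells 1 rose, Mzb1, an endoplasmic reticulum protein of B and plasma cells, with a fold by the authors' deposited table of 2.23 (1.68 to 2.97, adjusted p = 0.0143). Mzb1 lay near the floor, with means of 1.11 in sham and 2.48 after partial discectomy, floor included, in the authors' deposited table. Before adjustment 5 of the 12 were higher and 0 lower at a p under 0.05. Among the 5 were Irf4 and Prdm1, transcription factor genes of plasma cells, with ratios of 2.27 (1.05 to 4.92) and 1.59 (1.11 to 2.28), and Tent5c with 2.27 (1.42 to 3.65), by the authors' deposited table. Jchain, which links IgM and IgA into polymers, reached a ratio of 1.93 (0.628 to 5.94, adjusted p = 0.422), and Xbp1, a transcription factor of secretory cells, 1.07 (0.723 to 1.58) in the authors' deposited table. The median log2 ratio of that list was 0.56. Several of its genes, Xbp1, Txndc5 and Sdc1 among them, are also expressed by other secretory cells. Of 3 octamer factors, which bind antibody gene promoters, none was called, and the B cell co-activator gene Pou2af1 showed a ratio of 3.14 in the authors' deposited table (1.15 to 8.58, adjusted p = 0.156). Pou2af1 is also held by the list of antibody-secreting cells and is 1 of the 5 genes counted there.

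Of 19 genes of the T cell receptor complex and the T lineage 2 rose, by the authors' deposited table the receptor-associated kinase gene Lck (2.74-fold, 2.08 to 3.60, adjusted p = 0.00937) and the adhesion receptor gene Cd2 (2.18-fold, adjusted p = 0.0323). Before adjustment 13 of them were higher and 1 lower at a p under 0.05, the lower one being the transcription factor gene Bcl11b with a ratio of 0.540 (adjusted p = 0.181), and the median log2 ratio was 0.48, by the authors' deposited table. Lck and Cd2 lay near the floor in sham, with means of 1.19 and 1.34, floor included, in the authors' deposited table. The CD3 subunit genes Cd3e, Cd3g and Cd3d stood at ratios of 1.96, 1.39 and 1.14 by the authors' deposited table. Of 4 genes of gamma delta T cells none was called. At an unadjusted p under 0.05, Blk, which the B lineage list also holds, was higher (ratio 2.22) and the transcription factor gene Zbtb16 lower (ratio 0.532) in the authors' deposited table. Of 9 natural killer cell genes, which share several T cell functions but rearrange no receptor, 4 rose and all 9 were higher at an unadjusted p under 0.05 in the authors' deposited table.

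Neutrophil and red cell genes had larger median log2 ratios, floor included, than these lists in the same comparison. Of 10 neutrophil genes 8 rose, with levels above the floor that summed to 1408 after partial discectomy and 105 in sham, and all 8 erythroid genes rose, with sums of 227 and 11.9. Their median log2 ratios were 3.69 and 2.89. Single ratios overlapped, with erythroid ones from 2.69 upward and natural killer ones up to 3.74. Sums above the floor differed 13.4-fold for neutrophil, 19.0-fold for erythroid and 9.33-fold for natural killer genes, the last from a sham sum of 1.62. Those of the B and T cell lists above differed at most 4.16-fold. Osteoblast and osteocyte genes had 0 calls of 9 and a median log2 ratio of 0.63, and 0 of 9 at an unadjusted p under 0.05. Skeletal muscle genes had 0 of 6 called and a median of -0.53, with sums of 139 after partial discectomy and 203 in sham. Of 8 monocyte and macrophage genes 2 rose, with a median log2 ratio of 0.62. The part of a different make-up of the tissue samples in the antibody and T cell receptor values was not tested.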

How the data were processed

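The study sequenced RNA of 6 libraries, 3 sham and 3 partial discectomy. The submitters' processing notes name STAR 2.6.1d and mm10. Which read counter, gene filter, normalization and model followed is not given in the sources used here, and depth per library is unknown, so precision is given only through the authors' limits.

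The table deposited by the authors compares the groups over 23170 genes. Its signal columns, deposited by the authors, hold each group's mean and the sum, highest value and means over 6 libraries on a normalized scale. The authors' deposited ratio is the quotient of the group means, and the deposited log2 column its logarithm. The authors' signed fold change and its 95% limits, entered as a score, were turned into ratios. Each p-value is the authors', and the deposited adjusted p equalled a Benjamini-Hochberg adjustment over all genes. A second file held positions and symbols and was not used. A count-based test, which would need values per library, was not made. Columns that could be tied to no sample or group numbered 0.

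The floor of 1 was read as an added offset. The group of the highest library was deduced from the group means, the maximum and the geometric mean. It was given only where a single placement fits. The code for this step was run on simulated libraries built with the same floor, which cannot check the floor itself. Coding sequences were read from GENCODE vM21 by transcript and compared by global alignment. Deposited gene ends lay 1 base past the annotated ends for all 151 genes. Named genes were all constant genes, every called gene, up to 5 segments per locus with the highest mean, those with the largest and smallest ratios among segments of at least 1 above the floor, and genes of the lists. Further segments are named where a count or a comparison turned on them. One list is not reported here. The members and lists were chosen with earlier results of these data known. Alternatives varied the call rule, the treatment of the floor, the centre of the ratios and the members included. Python 3.11.15, numpy 2.4.6, pandas 2.3.3 and matplotlib 3.10.9 were used.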

Additional observations from a re-analysis of the deposited data

How the results depend on the processing

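Of the group results, 54 values under an alternative stayed close to the reported one, 21 moved and 3 changed sign, and of the other results 26 stayed close, 11 moved and 4 changed sign. The 3 immunoglobulin calls became 25 by the 95% limits, 22 at an unadjusted p and 1 when readjusted over the 10286 genes of at least 5 above the floor, and the 1 T cell receptor call became 3, 3 and 0, and also 0 over the 15911 genes of at least 1. Both filters drop Trbc1 and Igkv14-111 for their low level, and the filter at 5 also Iglc3, so their calls were removed with the genes and not by the readjustment, while Ighd kept an adjusted p of 0.0174 and 0.0204. The count of lower genes went from 0 to 1 by the limits.

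With the floor subtracted, the median log2 ratio became 1.01 for Igh, 2.70 for Igl, 1.51 for Tra, 3.82 for Trb and -1.17 for Trd. It was 1.00 for Igh over genes of at least 1 above the floor and 0.62 for Igl without constant genes. Relative to the log2 ratio of all summed means it turned to -0.017 for Igk and -0.078 for Trg, and relative to the median of all genes to -0.026 for Trg. With the floor included, the log2 ratio of sums went from 2.47 to 1.33 for Igl, 1.51 to 0.86 for Tra and 3.64 to 0.52 for Trb, which was 4.39 without its highest gene. The sham share of kappa in all light chain genes went from 96.6% to 94.1%. Without the highest library of Ighg2b, an alternative chosen after seeing the data, the sham share of switched classes went from 59.8% to 49.6%. Without the highest library the log2 ratio turned to -0.031 for Ighg2c, 0.87 for Ighg2b, 0.32 for Ighg3 and -0.062 for Trgc4. The cause was not tested, beyond the narrower sets of genes and the removed offset that these alternatives use.

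No paired analysis was possible because only group means were analysed, and for the same reason leaving out each replicate and count-based tools were not run. The highest values in single libraries, the unknown depth and near-identical segments limit the single-gene values.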
